A study of Mus musculus with 12 samples.

Results

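Vertebrate muscle makes its thin filaments from 4 actins, each encoded by its own gene: Acta1 (skeletal muscle alpha-actin), Actc1 (cardiac alpha-actin), Acta2 (smooth muscle alpha-actin) and Actg2 (enteric smooth muscle gamma-actin). These 4 genes were followed across cultures of mouse embryonic fibroblasts (MEFs) that received growing sets of cardiac transcription factors (TFs). The members are all probe sets that the platform annotation assigns to the 4 symbols, which gave 4 of 12393 genes measured and 5 of the 22626 probe sets tested, with 1 each for Acta1, Actc1 and Actg2 and 2 for Acta2. Acta1 was lower with every TF set, Actc1 was 12.7-fold higher with the largest set, and Actg2 was lower with the smaller sets but not with the largest. The 2 probe sets of Acta2 differed from each other.

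Muscle actins carry the force of contraction together with myosin, and the thin filament also holds tropomyosin and, in striated muscle, troponin. Their genes are classic targets of SRF (serum response factor), which binds CArG boxes, and of its partner MYOCD (myocardin), a coactivator found in cardiac and smooth muscle. In the embryo, the heart expresses several of these actins before cardiac alpha-actin prevails, and Acta2 also marks activated fibroblasts (myofibroblasts) in culture.

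All MEFs came from C57BL/6 mice and carried a lentivirus for M2rtTA, a transactivator switched on by doxycycline. The negative control received M2rtTA alone. TF group 1 also received GATA4, TBX5 and MEF2C. TF group 2 received those 3 factors with Mesp1 and SMARCD3, 5 in all, and TF group 3 received the same 5 with MYOCD and SRF, 7 in all. Every culture, the negative control included, was kept in doxycycline for 7 days, and per the study's methods with valproic acid and extra serum. Mesp1 was delivered as its mouse cDNA and the other factors as human cDNAs. Each group had 3 arrays that the labels call biological replicates. MYOCD and SRF were added together, and only on top of the other 5 factors, so the share of either one cannot be told apart. RNA came from the whole culture, so fewer cells with a transcript and less transcript per cell cannot be told apart.

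The values are linear signals of an Affymetrix mouse expression array, given on an arbitrary scale, and log2 changes were tested with limma over all probe sets. Calls required a fold change over 1.5 together with an adjusted p (Benjamini-Hochberg) under 0.05. Replicate arrays correlated at r = 0.960 to 0.966 across probe sets. Markers of the labelled cell type were present: none of the 14 fibroblast markers had a mean signal below 32 in any group. Col1a2 (a collagen I chain) had a mean signal of 12492 in the negative control. Only 20.4% to 24.2% of all probe sets lay below 32 on an array, so this alone does not identify a cell type. The 24 probe sets of the poly-A control transcripts averaged 0.81 more (log2) on TF arrays than on control arrays. The control arrays varied widely among themselves (7.79, 6.99 and 7.26), and all lay below the TF arrays (8.03 to 8.28), with no overlap. The array's control probe sets for 18S ribosomal RNA stood apart in the same way, with mean log2 signals of 11.03 to 11.32 on control arrays and 12.10 to 12.58 on TF arrays. The part of either difference in the results was not tested. Of the called probe sets, 60.1%, 57.9% and 59.2% were higher in the respective comparison of TF groups 1, 2 and 3 with the negative control. These shares were 45.7%, 47.6% and 46.7% with median-centred arrays, and 4.30%, 7.58% and 6.19% with arrays scaled to the poly-A spikes. The spike scaling also moved the share of higher calls from 52.0% to 81.3% for TF group 2 versus TF group 1, and from 53.7% to 73.8% for TF group 3 versus TF group 1. Against the negative control it lowered every log2 change by the same amount (-0.90, -0.74 and -0.79 for TF groups 1, 2 and 3), so that a smaller rise turned to a fall. Of the called rises given below, this held for Itga8 in TF group 1, Des and Myocd in TF group 2, and Lmod1, Hopx and Cdh2 in TF group 3.

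Since SRF was among the delivered factors, the stretch before each gene's start is shown with its CArG boxes. The reference promoter table of RefSeq (build GRCm38) matched 3 of the 4 genes, Acta1, Acta2 and Actc1 but not Actg2. Each sequence below holds the 250 bases before the annotated start, 5′ to 3′ along the gene, and all 3 genes lie on the minus strand. The Acta1 stretch is chr8:123894776-123895025, the Acta2 stretch chr19:34255374-34255623 and the Actc1 stretch chr2:114052876-114053125. Capitals mark each CArG box and each 10-base run that departs from it at 1 of its inner A or T positions.
Acta1: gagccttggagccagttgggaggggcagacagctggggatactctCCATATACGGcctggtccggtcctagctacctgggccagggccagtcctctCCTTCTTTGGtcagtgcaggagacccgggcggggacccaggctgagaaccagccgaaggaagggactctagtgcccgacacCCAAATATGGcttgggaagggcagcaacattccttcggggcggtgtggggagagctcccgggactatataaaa
Acta2: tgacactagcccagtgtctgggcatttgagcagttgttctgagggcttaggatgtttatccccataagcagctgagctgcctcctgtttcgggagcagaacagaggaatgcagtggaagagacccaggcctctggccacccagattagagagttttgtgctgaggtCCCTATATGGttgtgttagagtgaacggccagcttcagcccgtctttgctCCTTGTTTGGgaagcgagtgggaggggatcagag
Actc1: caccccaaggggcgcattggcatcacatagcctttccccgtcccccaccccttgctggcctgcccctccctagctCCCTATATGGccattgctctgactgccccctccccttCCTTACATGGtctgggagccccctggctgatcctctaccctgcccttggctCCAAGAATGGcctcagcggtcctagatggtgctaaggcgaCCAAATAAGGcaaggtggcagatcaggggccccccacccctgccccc
An exact CArG box was present in Acta1, from base -73 to -64, and in Actc1, from -47 to -38, counted from the annotated start. Such a box occurred in 1.47% of the 32851 promoters of the table. The Acta2 stretch held no exact box but held 2 runs with 1 departure, at -84 to -75 and -34 to -25. Runs of that kind were also present in Acta1, at -205 to -196 and -154 to -145. Actc1 held them at -175 to -166, -138 to -129 and -87 to -78. Of all promoters, 7.24% held at least 1. The departure was allowed only after these promoters had been read, so this share is no test of the 3 genes. The run of Acta2 at -84 and that of Actc1 at -175 had the same 10 letters, CCCTATATGG.

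**Figure D1:**
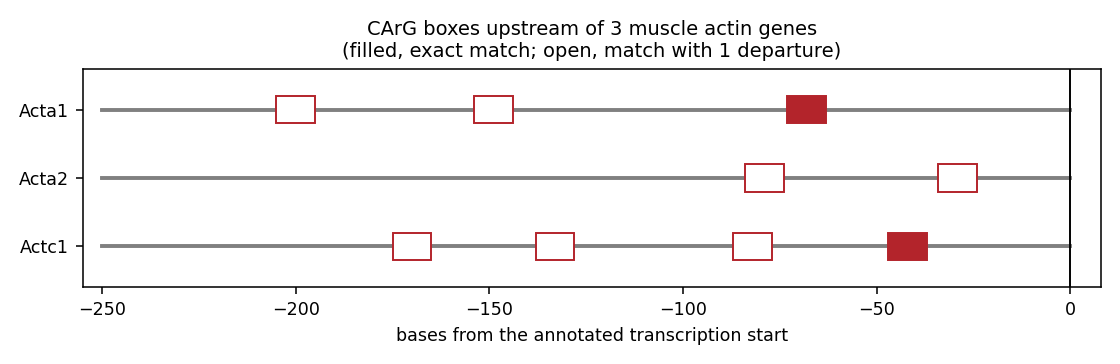
Position of CArG boxes (filled) and of runs with 1 departure (open) in the 250 bases before the annotated start of Acta1, Acta2 and Actc1, with distance from the start in bases on the horizontal axis. Acta1 and Actc1 each have 1 exact box and Acta2 has none.

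Further motifs were sought in these stretches, not all of them motifs of delivered factors. Neither the MEF2 site, present in 0.508% of all promoters, nor the GATA motif AGATAA (9.99%) nor the T-box motif AGGTGT (11.8%) was found on either strand in the 3 genes. The E-box CANNTG, found in 66.2% of all promoters, occurred 2 times in Acta1 and 3 times in Acta2. The MCAT motif CATTCC (12.6%) occurred in Acta1 and, on the other strand, in Acta2. TATAAA (12.4%) occurred in Acta1, at -7 to -2 from the annotated start. Whether the annotated starts are those used in these cultures was not tested. These are matches of letters and no measure of binding.

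Actc1 encodes the actin of the adult heart muscle cell, and it showed the largest change of the 4 genes. Its signals on the 3 negative control arrays were 145, 73.5 and 98.3. TF group 1 gave 142, 154 and 138, and TF group 2 gave 201, 166 and 209. TF group 3 gave 1239, 1092 and 1589. All 3 arrays of TF group 3 thus lay above the other 9, whereas negative control replicate 1 lay within the range of TF group 1.

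Against the negative control Actc1 was 12.7-fold higher in TF group 3 (95% interval 8.85 to 18.2; limma, adjusted p = 1.78e-06). For TF group 2 the rise was 1.88-fold (adjusted p = 0.0105), while the log2 change for TF group 1 was 0.51 ± 0.23 (SE, adjusted p = 0.115) and was not called. Between the TF groups, TF group 3 exceeded TF group 2 by 6.75-fold (adjusted p = 0.000127) and TF group 1 by 8.93-fold (adjusted p = 4.31e-05). TF groups 1 and 2 were not separated by this test (log2 change 0.40, 95% interval -0.12 to 0.92, adjusted p = 0.389). In the order of levels, TF group 3 stood first by a called margin, and the next neighbours, TF group 2 over TF group 1 and TF group 1 over the negative control, were not separated. The result for TF group 1 rested on 1 array, since without negative control replicate 1 its log2 change was 0.77 and was called (adjusted p = 0.0114). The call for TF group 2 was lost with arrays scaled to the poly-A spikes (log2 change 0.17) and in a fit of only the 2 groups (adjusted p = 0.0522).

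**Figure D2:**
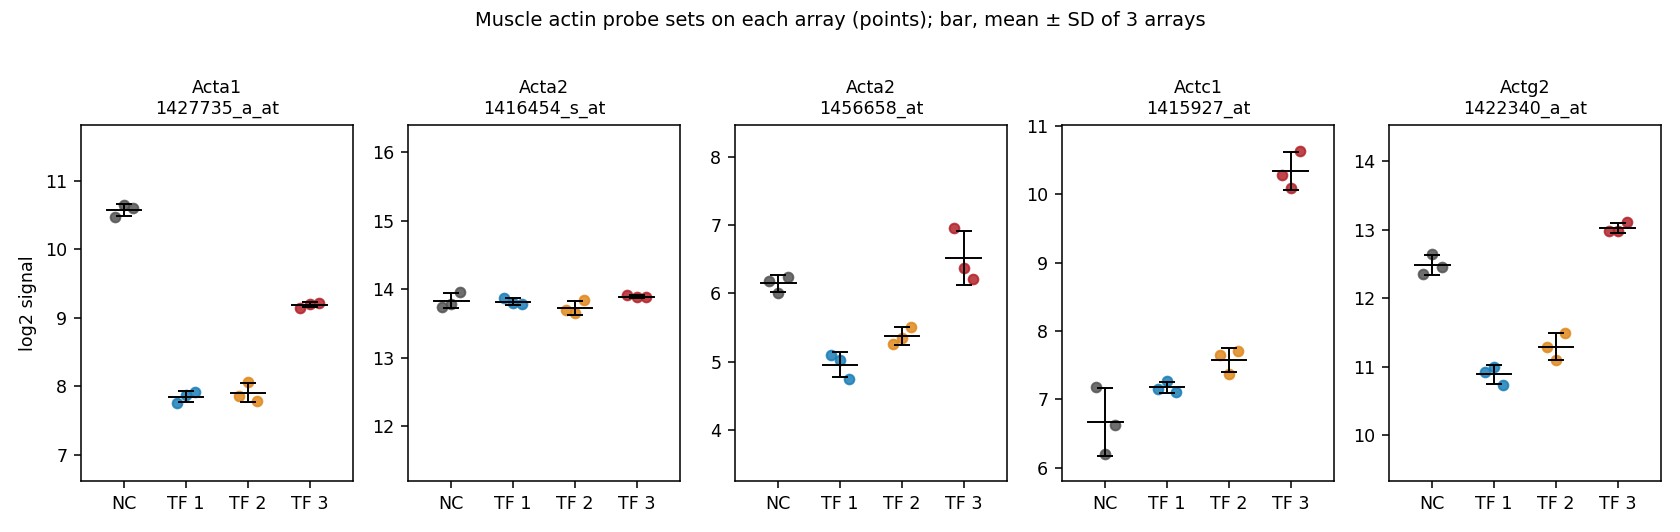
Log2 signal (vertical axis, the same span in each panel) of the 5 muscle actin probe sets on the 12 arrays by group, with NC the negative control and TF 1 to TF 3 the TF groups; points are arrays and bars the mean ± SD of 3. Actc1 is high in TF group 3 alone, Acta1 is below its control arrays in every TF group, and Actg2 and the dimmer Acta2 probe set are low in TF groups 1 and 2.

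Acta1, the actin of adult skeletal muscle, changed in the other direction. Its signals were 1422, 1613 and 1551 in the negative control. With TF group 1 they fell to 216, 234 and 243, and TF group 2 gave 233, 268 and 222. TF group 3 lay between, with 568, 590.0 and 595. No array of a TF group overlapped the negative control, and no array of TF group 3 overlapped those of TF groups 1 and 2.

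Against the negative control, Acta1 was 6.62-fold lower with TF group 1 (log2 change -2.73 ± 0.09 SE; adjusted p = 5.07e-08). It was 6.35-fold lower in TF group 2 (adjusted p = 3.82e-08) and 2.61-fold lower in TF group 3 (adjusted p = 1.49e-06). TF group 3 nevertheless exceeded TF group 2 by 2.43-fold (adjusted p = 3.44e-05) and TF group 1 by 2.53-fold (adjusted p = 2.05e-05). TF groups 1 and 2 were not separated, with a log2 change of 0.06 (95% interval -0.13 to 0.25). That last value changed sign, to -0.02, without TF group 2 replicate 2.

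Actg2, the gamma-actin of visceral smooth muscle, was low in TF groups 1 and 2 and not in TF group 3. The negative control arrays gave 5244, 6407 and 5625. TF group 1 gave 1948, 2044 and 1708, and TF group 2 gave 2494, 2191 and 2887. TF group 3 gave 8127, 8060.2 and 8865, each above every negative control array.

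Measured against the negative control, Actg2 was 3.03-fold lower with TF group 1 (log2 change -1.60 ± 0.12 SE; adjusted p = 5.59e-06) and 2.29-fold lower with TF group 2 (adjusted p = 3.25e-05). The value for TF group 3 was 1.45-fold higher (95% interval 1.21 to 1.75; adjusted p = 0.0051), under the fold threshold, so it was not called. It was called with quantile normalization (log2 change 0.62) and without negative control replicate 2 (0.62), and it was -0.25 with arrays scaled to the poly-A spikes. Actg2 in TF group 3 exceeded that in TF group 2 by 3.33-fold (adjusted p = 4.18e-05) and that in TF group 1 by 4.40-fold (adjusted p = 9.99e-06). Its log2 change from TF group 1 to TF group 2 was 0.40 (adjusted p = 0.0832), which did not pass although the arrays of the 2 groups did not overlap.

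Acta2, the alpha-actin of vascular smooth muscle, was read by 2 probe sets with different outcomes. The bright one gave 13749, 14143 and 15958 in the negative control and 15019, 14189 and 14048 in TF group 1. TF group 2 gave 13220.2, 12838 and 14656, and TF group 3 gave 15405, 15085 and 15157. The groups overlapped except that every array of TF group 3 lay above those of TF groups 1 and 2. In none of the 6 comparisons was it called by limma, and 0 of the 6 passed at an unadjusted p under 0.05 (log2 changes from -0.11 to 0.17). The 95% interval of the largest, TF group 3 versus TF group 2, ran from -0.0014 to 0.34.

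These signals lay close to the highest on any array, which ranged from 15633 to 19192. Of the 202 probe sets with a mean log2 signal above 13, 0.990% were called in TF group 3 versus the negative control, against 21.0% of those between 11 and 13. The part that a ceiling of the signal has in this result was not tested. By the naming of the array's maker, a probe set ending in _s_at, as the bright one does, can match transcripts of more than 1 gene, which was not tested here either. Scaled to the poly-A spikes, the same probe set was called lower in all 3 TF groups (log2 changes -0.92, -0.84 and -0.73), where the median of all probe sets was -0.84, -0.69 and -0.74.

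The dim Acta2 probe set gave 72.9, 64.3 and 75.9 in the negative control. TF group 1 gave 34.2, 32.5 and 27.0 and TF group 2 gave 38.4, 40.8 and 45.8, all below the negative control. TF group 3 gave 124, 82.8 and 74.2, which overlapped the negative control and lay above both other TF groups. Relative to the control it was 2.28-fold lower with TF group 1 (adjusted p = 0.000608) and 1.70-fold lower with TF group 2 (adjusted p = 0.00754), and its log2 change with TF group 3 was 0.37 (adjusted p = 0.149). TF group 3 exceeded TF group 2 by 2.20-fold (adjusted p = 0.00509) and TF group 1 by 2.94-fold (adjusted p = 0.000609). With an offset of 50 added to the signals, the log2 changes against the negative control were -0.58 and -0.40 in TF groups 1 and 2, under the fold threshold. The call of TF group 3 over TF group 2 was lost in a fit of only the 2 groups (adjusted p = 0.0532) and with the spike scaling (adjusted p = 0.0638).

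Counted over the 5 probe sets, 3 were called lower and none higher in TF group 1 versus the negative control, where 9.06% of all 22626 probe sets were called lower and 13.6% higher. In TF group 2, 3 were lower and 1 higher, against 9.98% lower and 13.7% higher. In TF group 3, 1 was lower and 1 higher, against 9.36% lower and 13.6% higher. In TF group 2 versus TF group 1 none of the 5 was called by limma or by an unmoderated linear model per probe set, although 2 had an unadjusted p under 0.05, and in that comparison 1.70% of all probe sets were called higher and 1.57% lower. In TF group 3 versus TF group 2, 4 of the 5 were higher and none lower, against 2.18% higher and 1.39% lower. In TF group 3 versus TF group 1, 4 of the 5 were again higher, against 3.04% higher and 2.62% lower. These comparisons share arrays, so their counts are not independent.

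**Figure D3:**
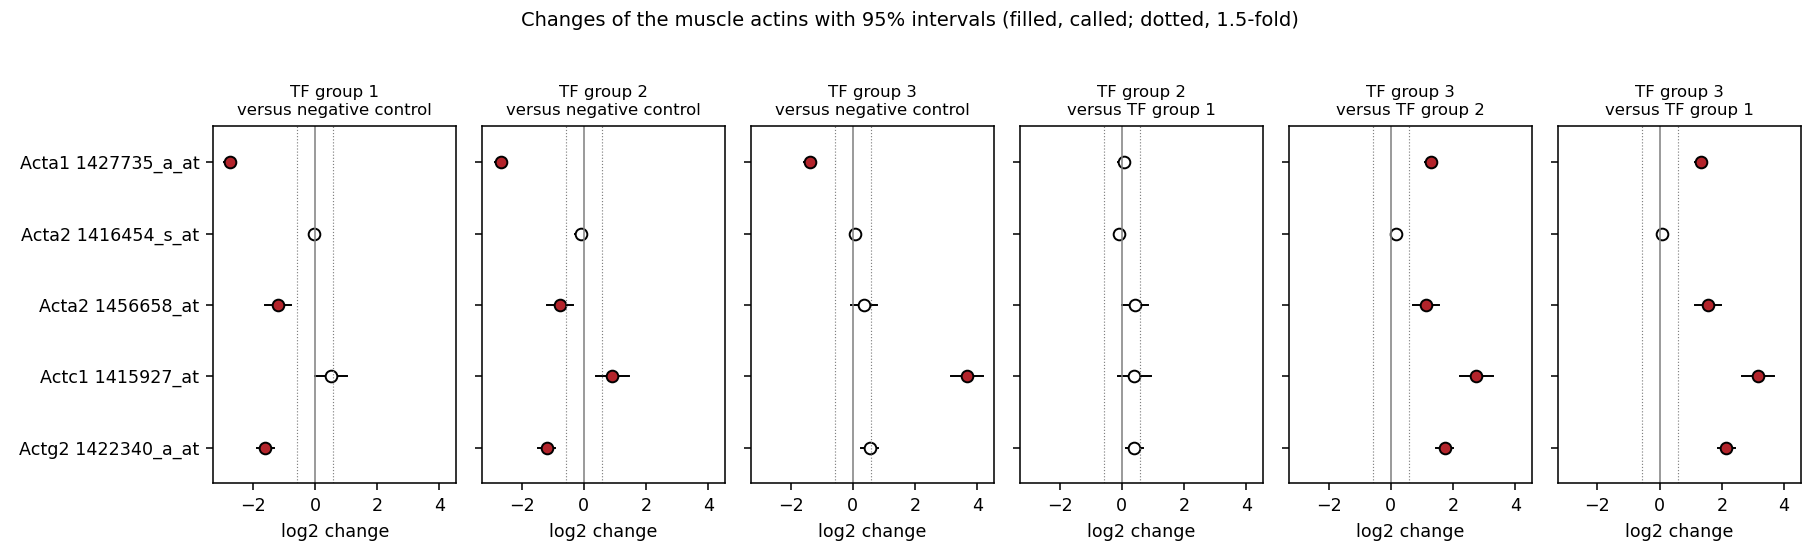
Log2 change (horizontal axis) of the 5 muscle actin probe sets in the 6 comparisons, with 95% intervals of the limma fit; filled points were called and dotted lines mark a 1.5-fold change. In the comparisons of TF group 3 with TF groups 1 and 2, 4 of the 5 probe sets lie to the right, and the bright Acta2 probe set lies near 0 in all 6.

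Under the spike scaling, with the median over all probe sets subtracted, which removes the constant by which the spike scaling shifts a comparison, the log2 change of Acta1 was -2.78, -2.71 and -1.44 in TF groups 1, 2 and 3 versus the negative control, that of Actg2 -1.65, -1.24 and 0.49, and that of Actc1 0.45, 0.87 and 3.62. The bright Acta2 probe set stood at -0.07, -0.15 and 0.01. By construction these values are the deposited log2 changes less their own median over all probe sets, so they are no separate check of the scaling.

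**Figure D4:**
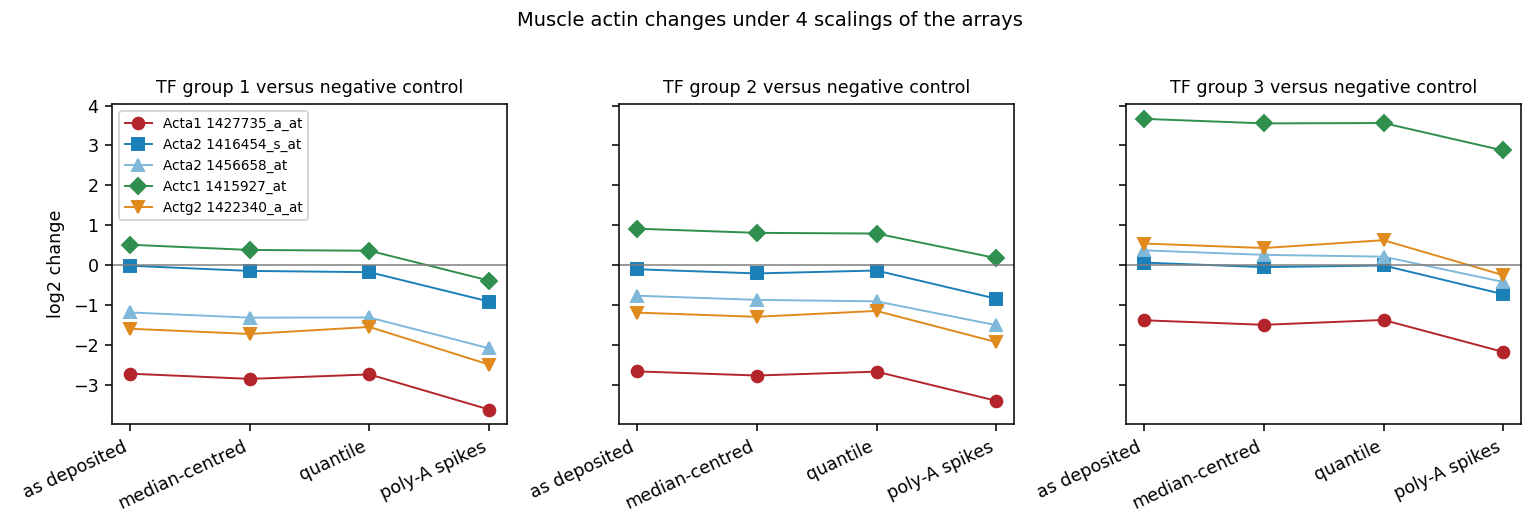
Log2 change against the negative control (vertical axis) of the 5 muscle actin probe sets in TF groups 1, 2 and 3, with the arrays as deposited, median-centred, quantile normalized and scaled to the poly-A spikes. The values move down together under the spike scaling, and the order of the probe sets within TF groups 1 and 2 stays the same.

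Whether the 4 genes changed unequally was tested with the difference of 2 members' log2 signals on each array, which no scaling of whole arrays can move. Over 6 pairs and 2 contrasts, 12 exact two-sided permutation tests over arrays were run, with the bright probe set for Acta2. The smallest p the design allows was 0.00455 for the 9 TF arrays against the 3 negative control arrays and 0.0119 for the 3 arrays of TF group 3 against the 6 of TF groups 1 and 2. Acta1 and Actc1 parted the most: the log2 difference Acta1 minus Actc1 was 3.96 lower on the TF arrays (-0.05 ± 0.86, SD, n = 9, against 3.91 ± 0.59, n = 3; exact permutation p = 0.00455, adjusted p = 0.0136). On this measure all 9 TF arrays lay below the 3 control arrays. Acta1 also fell relative to Actg2 (difference -1.51), and Actc1 parted from Actg2 (2.45 for Actc1 minus Actg2), each at the same exact p. These contrasts average the TF groups, which differed: Actg2 itself was lower in TF groups 1 and 2 but not in TF group 3.

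Within the TF arrays, Actc1 rose more than Actg2 in TF group 3 (1.02 on the log2 scale) and more than Acta1 (-1.65 for Acta1 minus Actc1), each at an exact permutation p of 0.0119 (adjusted p = 0.0159). Actg2 rose more than Acta1 by 0.63 (-0.63 for Acta1 minus Actg2, exact permutation p = 0.0238, adjusted p = 0.0286).

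The tests with Acta2 depended on its probe set, and the bright one lies near the top of the signal range, so the dim one was tested in its place after its values had been seen. Averaged over the TF arrays, Acta1 fell relative to Acta2 with either. The difference was -2.24 (bright, adjusted p = 0.0136) and -1.73 (dim, adjusted p = 0.0109), each at an exact permutation p of 0.00455. With the signals as deposited, neither Acta2 probe set was called lower in all TF groups. In TF group 3 against TF groups 1 and 2, Acta1 minus Acta2 was 1.19 with the bright probe set (exact permutation p = 0.0119, adjusted p = 0.0159) but -0.037 with the dim one (exact permutation p = 0.869), so whether Acta1 rose more than Acta2 was not settled. Acta2 minus Actg2 was -1.81 with the bright and -0.59 with the dim probe set there, and Acta2 minus Actc1 was -2.83 and -1.61, each at an exact permutation p of 0.0119 (adjusted p = 0.0159). For TF arrays against the negative control, Acta2 minus Actc1 did not pass with the bright probe set (-1.72, exact permutation p = 0.0955, adjusted p = 0.104) and passed with the dim one (-2.23, exact permutation p = 0.00455, adjusted p = 0.0109). Acta2 minus Actg2 passed with neither (0.73, exact permutation p = 0.195, and 0.22, exact permutation p = 0.409). The pooled TF arrays lay on both sides of the control here. With the bright probe set the difference averaged 2.68 in TF groups 1 and 2, 0.87 in TF group 3 and 1.35 in the negative control. With the dim one it averaged -5.92, -6.51 and -6.34 in the same order. By averaging these, the contrast cannot tell whether the 2 genes parted in any single TF group.

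Across the 12 arrays the dim Acta2 probe set and Actg2 varied together most among the members (Pearson r = 0.94), followed by Acta1 and Actg2 (0.76). Acta1 and Actc1 had an r of -0.05. These values describe 12 arrays in 4 groups and mostly follow the group means: within groups, after subtracting each group's mean, the first 2 were 0.04 and -0.35.

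The probe sets most like each member over the 12 arrays, among 10831 with a mean log2 signal of at least 7, differed from member to member. Acta1 was closest to Cse1l, a nuclear export factor (Pearson r = 0.996), Ddx39a, an RNA helicase (0.995), Clic4, Pitpna and Inhba (0.985). Actc1 was closest to Sccpdh (0.986), Impa1, Hoxd10, Pkp2, a desmosomal plaque protein, and Sez6l2 (0.981). For Actg2 these were Bdnf, a neurotrophin (0.982), Hacd1, Tgfb3, Gask1b and Ece2 (0.973). The bright Acta2 probe set was closest to Dstn, the actin-depolymerizing protein destrin (0.830), Actn4, a non-muscle alpha-actinin, Spsb1, Thra and Fgfr2 (0.790). The dim one was closest to Klhl2 (0.978), Fblim1, Dpysl3, Bdh1 and Actn1, another alpha-actinin (0.953). Ranked by Spearman's rho instead, none of the 5 closest genes was the same for Acta1, Actc1 and Actg2, against 3 for the bright and 2 for the dim Acta2 probe set.

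The cytoplasmic actins Actb and Actg1, which all cells use, served as a reference within the actin family. None of their 3 probe sets was called by limma in any of the 6 comparisons, with log2 changes from -0.16 to 0.30, although 5 of the 18 values had an unadjusted p under 0.05. The Actg1 probe set, which also ends in _s_at, and the brighter Actb one had mean signals of 13279 and 12686 in the negative control. These lie near the top of the signal range, and the part of a ceiling was not tested here either. For the dimmer of the Actb probe sets the fold change was 1.23, 1.20 and 1.19 with TF groups 1, 2 and 3 (adjusted p = 0.00392, 0.0075 and 0.00961), under the fold threshold. With the spike scaling both genes were called lower in each of the 3 TF groups, as were 55.3%, 44.4% and 48.4% of all genes. Their median log2 changes were then -0.82, -0.78 and -0.83 in TF groups 1, 2 and 3, against -0.83, -0.68 and -0.74 for all genes.

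Gene lists around the actins were counted next, with 1 probe set a gene. Against the negative control, the shares of all 12393 genes called higher were 15.1%, 15.3% and 14.7% in TF groups 1, 2 and 3, and the shares called lower were 8.93%, 10.1% and 9.84%. Of 16 smooth muscle partners measured, 6 were called higher and none lower for TF group 3 against the negative control, with a median log2 change of 0.42, where the median of all genes was 0.05. In TF group 1, the counts were 1 higher and 3 lower (median -0.35), and for TF group 2 they were 1 higher and 2 lower (median -0.05), shares of 6.25% higher in both and of 18.8% and 12.5% lower. With arrays scaled to the poly-A spikes, the direction of the TF group 3 median turned to -0.38, with 3 higher and 6 lower, where the median of all genes was -0.74. Between TF groups 3 and 2, where the spike scaling puts the median of all probe sets at -0.06, 6 of 16 were higher and none lower (median 0.46), against 2.32% of all genes higher, and 4 were higher with the spike scaling.

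The smooth muscle gene that rose most was Myh11, the smooth muscle myosin heavy chain, with mean signals of 58.5 in the negative control, 57.0 in TF group 1, 78.6 in TF group 2 and 2815 in TF group 3. Mylk, the kinase that phosphorylates myosin light chain, went from 1013 to 5918 in TF group 3, and Kcnmb1, a potassium channel subunit of smooth muscle, from 54.6 to 302. Cnn1 (calponin), an actin-binding inhibitor of myosin, fell in TF groups 1 and 2 (log2 changes -1.33 and -1.28), and so did Smtn (smoothelin; -0.75 and -0.85). Lmod1 (leiomodin), which starts actin filaments, fell in TF group 1 (-0.80) and rose in TF group 3 (0.61). Itga8 rose in TF group 1 (0.82) and Des (desmin) in TF group 2 (0.68).

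**Figure D5:**
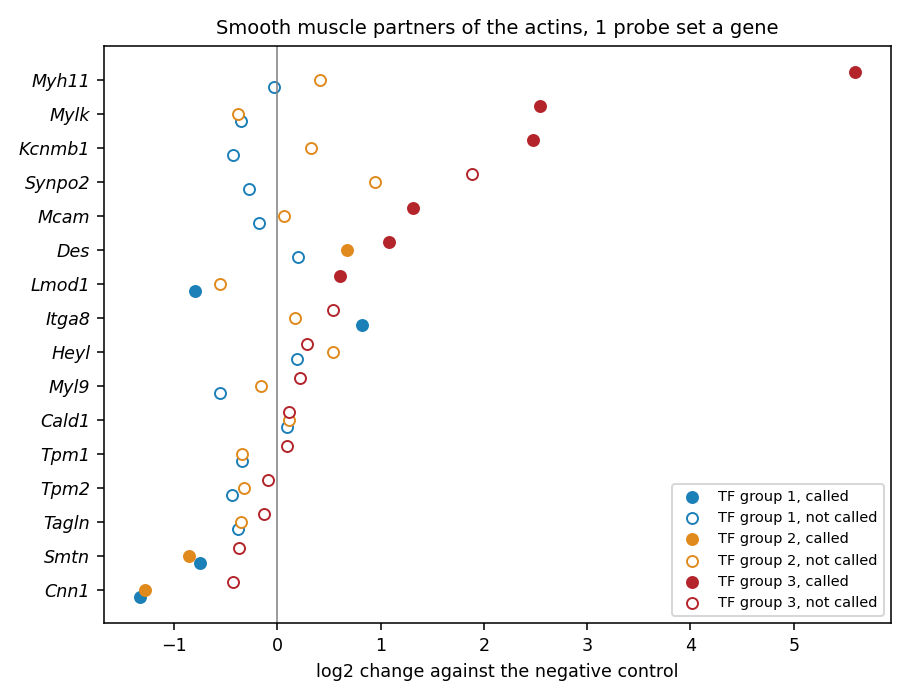
Log2 change against the negative control (horizontal axis) of the 16 smooth muscle partner genes in TF groups 1, 2 and 3, ordered by the change in TF group 3; filled points were called. Myh11, Mylk and Kcnmb1 stand far to the right in TF group 3 alone, and Cnn1 and Smtn lie to the left in TF groups 1 and 2.

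Of 21 sarcomere partners of the heart muscle, 10 were higher (47.6%, against 15.1% of all genes) and 1 lower in TF group 1. In TF group 2, 11 were higher (52.4%, against 15.3%) and none lower. In TF group 3, 14 were higher (66.7%, against 14.7%) and none lower. Under the spike scaling 10 were higher and 2 lower there (47.6% and 9.52%, against 3.53% and 48.4% of all genes). In the negative control 8 of the 21 had a mean signal below 32. Tnnt2 (troponin T) had mean signals of 94.8 in the negative control and 1734, 2029 and 5500 in TF groups 1, 2 and 3, and Tnnc1 (troponin C) 78.4, 1943, 1846 and 3741. Myh6, a cardiac myosin heavy chain, had mean signals of 3.67, 3.87 and 5.39 in the negative control and TF groups 1 and 2, far below a signal of 32, and of 208 in TF group 3. Between TF groups 3 and 2, 6 were higher (28.6%, against 2.32% of all genes), Myh6, Tnnt2 and Myom1 the most. Lower were 3 (14.3%, against 1.70%), namely Myoz2, Ttn and Mybpc3. In TF group 1, where 10 of these genes were higher, Actc1 was not called and Acta1 was lower.

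Of 21 skeletal muscle partners, 3 were higher (14.3%, near the 15.1% of all genes) and none lower in TF group 1. In TF group 2, 5 were higher (23.8%, against 15.3%) and none lower. In TF group 3, 6 were higher (28.6%, against 14.7%) and 1 lower. Under the spike scaling 5 were higher and 4 lower there (23.8% and 19.0%, against 3.53% and 48.4% of all genes). A mean signal below 32 was held by 11 of the 21 in the negative control and in TF group 1, and by 8 in TF group 3. Myl1, a fast skeletal myosin light chain, had mean signals of 28.1, 28.8, 8553 and 3893 in the negative control and TF groups 1, 2 and 3. Myh1, a fast myosin heavy chain, rose in all 3 (37.8 in the negative control, then 385, 893 and 415). From TF group 2 to TF group 3, Tnnt1 and Mylpf were higher (9.52%, against 2.32% of all genes). Myl1, Myh1 and Myh2 were lower (14.3%, against 1.70%), while Acta1 was higher.

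Among 13 genes of SRF and its cofactors, 4 were higher (30.8%, against 14.7% of all genes) and 1 lower (7.69%, against 9.84%) with TF group 3 relative to the negative control. Under the spike scaling 2 were higher and 8 lower (15.4% and 61.5%, against 3.53% and 48.4% of all genes). Srf itself was lower in all 3 TF groups, with mean signals of 794, 427, 467 and 440.5 in the negative control and TF groups 1, 2 and 3 (adjusted p = 0.000205, 0.000501 and 0.000274). Myocd had mean signals of 47.5, 32.8, 74.7 and 45.3, and was called higher for TF group 2 (adjusted p = 0.0169), to which no MYOCD was given, but not for TF group 3 (adjusted p = 0.883). These are mouse probe sets, and how far they read the human cDNAs was not tested. Mef2c rose 7.04-fold with TF group 1, 7.05-fold with TF group 2 and 5.20-fold with TF group 3. The largest rises of the list in TF group 3 were those of Csrp3, Csrp2 and Hopx. Csrp3 was called higher in all 3 TF groups against the negative control, with log2 changes of 1.37, 1.86 and 1.81. Hopx peaked in TF group 2. Its mean signals were 271, 321, 1794 and 454 in the negative control and TF groups 1, 2 and 3. From TF group 2 to TF group 3 the log2 change was -0.05 for Csrp3 (not called) and -1.99 for Hopx (called). For Csrp2, a LIM protein of smooth muscle, it was 1.57 (called). Fhl1 and Fhl2, further LIM proteins, fell in TF groups 1 and 2 (log2 changes of -0.81 and -0.69 for Fhl1).

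Of 35 proteins that build and turn over actin filaments, 6 were higher (17.1%, against 14.7% of all genes) and 3 lower (8.57%, against 9.84%) with TF group 3 relative to the negative control, shares near those of all genes. The formin Fhod3, which works in the cardiac sarcomere, had mean signals of 44.2, 444, 1023 and 622 in the negative control and TF groups 1, 2 and 3. Scin and Cap2 rose as well, and Diaph3, Capg and Arpc5 were lower. Between TF groups 3 and 2, 3 of the 35 were higher (8.57%, against 2.32% of all genes), namely Lmod1, Scin and Tmod1. Lower were 3 (8.57%, against 1.70%), namely Lmod2, Limk1 and Fhod3. Of 22 crosslinkers and anchors, 3 were higher (Pdlim3, Ldb3 and Actn3) and 2 lower (Lasp1 and Fscn1) in TF group 3, again near the shares of all genes (13.6% against 14.7% and 9.09% against 9.84%). Of the 13 genes of the CCT chaperonin and prefoldin, which fold new actin, Cct3 and Pfdn6 (15.4%, against 8.93% of all genes) were called lower in TF group 1. None was called in TF groups 2 and 3. The list's median log2 change was -0.44, -0.35 and -0.31 in TF groups 1, 2 and 3, against 0.07, 0.06 and 0.05 for all genes. Its summed signal ranged from 49774 to 51971 in the negative control. The ranges were 39812.5 to 40313 in TF group 1, 41215 to 42217 in TF group 2 and 41551 to 43121 in TF group 3. With the spike scaling, 21 of the 35 assembly genes were called lower in TF group 3, and 48.4% of all genes were.

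Markers of other cell types moved beside these results. Of 14 fibroblast markers, none was higher and 6 were lower (42.9%, against 9.84% of all genes) with TF group 3 relative to the negative control, and their summed signal ranged from 77202 to 80907 in the negative control and from 67112 to 69506 in TF group 3. It ranged from 87188 to 93601 in TF group 1 and from 69408 to 72222 in TF group 2. Of 16 myofibroblast genes, 2 were higher (Tgfb2 and Cdh2; 12.5%, under the 14.7% of all genes) and none lower in TF group 3. Of 10 neuronal markers, 5 were higher and 1 lower there (14.7% and 9.84% of all genes), and their summed signal was 1717 to 1886 in the negative control, 4288 to 5017 in TF group 1, 4736 to 5202 in TF group 2 and 3646 to 4056 in TF group 3. In TF group 3 endothelial markers (10) had 1 higher and 1 lower, macrophage markers (10) none higher and 2 lower, and epithelial markers (8) 2 higher and none lower, against the same shares of all genes, and 5 of the 10 endothelial markers had a mean signal below 32. The part of other cell types in the levels of the 4 actins was not tested.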

How the data were processed

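Total RNA of whole MEF cultures was amplified and hybridized to Affymetrix mouse arrays. The deposited intensity values are 1 linear signal per probe set and array, for 22690 probe sets, made from the scans by the authors' core facility or the authors. RMA and Partek are named, without version, in the submitters' processing notes. RMA gives log2 values, whereas the deposited signals are linear and have a 2% trimmed mean of about 500.2 on each array, so the method behind them is not stated. Array medians ran from 131.4 to 149.3, and 3 arrays per group limit the precision. The signals were used as deposited and taken to log2, with 64 control probe sets left out.

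Models were fitted with limma 3.58.1 in R 4.3.3 (lmFit, eBayes), 1 mean per group over the 12 arrays, and p-values were adjusted over 22626 probe sets. Each of 12393 gene symbols was represented by its brightest probe set. The 14 gene lists covered cytoplasmic actins, actin folding, filament assembly and turnover, crosslinkers, SRF cofactors, smooth, cardiac and skeletal muscle partners, myofibroblast genes, and fibroblast, endothelial, macrophage, epithelial and neuronal markers. The members and lists were chosen with earlier results of these data known. Named genes were the members, Actb, Actg1, the 5 genes most correlated with each member, Srf, Myocd, Mef2c, and up to 3 called list members per direction and comparison. Col1a2 was named after its values were seen. The fits were tested on simulated data. Alternatives were other scalings, an offset of 50, a filter on dim probe sets, an intensity trend, a replicate block, only the 2 groups compared, an unmoderated linear model and each array left out. Allowing 1 departure in the CArG box was chosen after the promoters were read. The replicate numbers did not pair the samples (correlation of deviations -0.07 to 0.12 for 18 same-numbered pairs).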

Additional observations from a re-analysis of the deposited data

Results flagged for a closer look

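Actg2 lay below all negative control arrays in TF groups 1 and 2 and above all of them in TF group 3. The difference itself was tested with limma: the log2 change was 2.14 in TF group 3 versus TF group 1 (adjusted p = 9.99e-06) and 1.73 in TF group 3 versus TF group 2 (adjusted p = 4.18e-05), in 3 of 3 arrays each. The difference between TF group 3 and the negative control did not pass the fold threshold, and its sign turned with the spike scaling. A signal outside the main measurement, that of the 18S ribosomal RNA control probe sets, was 1.19 higher (log2) on the 9 TF arrays than on the 3 control arrays, with no overlap.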

How the results depend on the processing

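Of the 30 member values, all 30 kept their direction and call without dim probe sets, with an intensity trend, under an unmoderated linear model and with the replicate block, where Actc1 in TF group 2 versus the negative control had an adjusted p of 0.0114 (0.0105 without the block). Median-centring turned 1 value, the bright Acta2 probe set in TF group 3 versus the negative control (-0.052). Quantile normalization turned that value (-0.011) and the bright Acta2 probe set in TF group 2 versus TF group 1 (0.041), and called Actg2 in TF group 3 versus the negative control (0.62). Scaling to the poly-A spikes kept 21 of 30. It called the bright Acta2 probe set lower in TF groups 1 and 2 (-0.92 and -0.84) and turned it in TF group 3 (-0.73) and in TF group 2 versus TF group 1 (0.072). It also turned the dim Acta2 probe set (-0.42) and Actg2 (-0.25) in TF group 3 and Actc1 in TF group 1 (-0.39), and ended the calls of Actc1 in TF group 2 (0.17) and of the dim Acta2 probe set in TF group 3 versus TF group 2 (1.08). An offset of 50 ended 2 calls of the dim Acta2 probe set (-0.58 and -0.40), as it shrinks changes of low signals. With only the 2 groups, Actc1 in TF group 2 versus the negative control (0.91) and the dim Acta2 probe set in TF group 3 versus TF group 2 (1.14) missed the threshold, with fewer arrays for the spread.

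With each array left out in turn, 175 of 180 values kept direction and call. The ranges of the results that did not were -0.021 to 0.12 for Acta1 in TF group 2 versus TF group 1, and -0.060 to 0.048 for the bright Acta2 probe set, 0.28 to 0.77 for Actc1 in TF group 1 and 0.47 to 0.62 for Actg2 in TF group 3, each versus the negative control. Where no construction is named, the cause was not tested. Signals near 32 or near the top of the range limit both Acta2 probe sets. With the dim Acta2 probe set in the pair tests, an alternative chosen after seeing the data, Acta1 minus Acta2 in TF group 3 versus TF groups 1 and 2 turned to -0.037 and Acta2 minus Actc1 on TF versus negative control arrays passed (-2.23).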
